A study of Rattus norvegicus with 9 samples.

Results

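The 9 genes described here are the genes of the myelin sheath named Mbp, Mobp, Mog, Mag, Mal, Cnp, Cldn11, Opalin and Ermn. They were chosen by name: every probe whose platform gene symbol matched was taken, which gave 9 probes, 1 for each gene, of 22517 probes in all. The annotation names 10412 distinct genes on 10687 of those probes. The samples were the cortex of 9 Sprague-Dawley rats of 60 days, 3 females and 6 males, all from the non-irradiated control group, with 1 Illumina rat bead array for each animal. After death the brains were kept in RNAlater, the hippocampus was taken off and cortex alone went into RNA extraction, per the labels' protocols, and 250 ng of RNA was amplified to biotin-labelled cRNA. The irradiated animals of the study are not analysed here, so the question is how far the myelin genes differ among untreated animals, between the sexes and with each other. The animals of each sex are numbered by record order, which is a name only.

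Myelin is the membrane that oligodendrocytes wrap around axons in the central nervous system. Its compact part is held together by basic proteins on the cytoplasmic face (Mbp and Mobp), and other proteins sit in the inner or outer layers: Mag faces the axon, Mog lies on the outermost surface, Cnp binds the cytoskeleton in the uncompacted channels, and Cldn11 forms the tight junctions between wraps. Mal is a proteolipid that sorts membrane to the sheath, while Opalin and Ermn are oligodendrocyte proteins that appear late in maturation, Ermn as an actin-associated protein. In the rat these genes are switched on together during postnatal development, under transcription factors that include Sox10 and Myrf, and the cortex of a young adult still adds myelin. Levels from whole cortex mix all cells, so fewer oligodendrocytes and less myelin RNA in each cannot be told apart.

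The stretches before the start sites of 4 of these genes are printed because genes that moved together across animals are the subject of the report, and because Sox10-type and Myrf-type sites are known to act at myelin genes. They come from the RefSeq promoter table (build GRCr8), which listed 7 of the 9 genes in 8 windows, Mbp having 2 starts. Mobp was the gene with the widest gap between male 5 and the other animals, Opalin has the highest variation between animals, and Mag and Cnp form a pair discussed below. Each is the 250 bases before the start site, read 5′ to 3′ on the gene's strand, in lower case. Capitals mark matches to a SOX-type motif (ACAAAG or ACAATG) or a MYRF-type motif (CTGGCAC or CTGGTAC), searched on both strands. The Mobp stretch is chr8:128746982-128747231 on the plus strand, Opalin chr1:249858191-249858440 on the minus strand, Mag chr1:95291045-95291294 on the minus strand and Cnp chr10:86011254-86011503 on the plus strand.
Mobp: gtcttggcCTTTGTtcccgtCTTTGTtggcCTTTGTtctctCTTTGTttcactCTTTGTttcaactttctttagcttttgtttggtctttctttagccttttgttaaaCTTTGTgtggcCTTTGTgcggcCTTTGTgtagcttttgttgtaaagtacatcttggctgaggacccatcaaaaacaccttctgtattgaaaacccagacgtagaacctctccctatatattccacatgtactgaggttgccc
Opalin: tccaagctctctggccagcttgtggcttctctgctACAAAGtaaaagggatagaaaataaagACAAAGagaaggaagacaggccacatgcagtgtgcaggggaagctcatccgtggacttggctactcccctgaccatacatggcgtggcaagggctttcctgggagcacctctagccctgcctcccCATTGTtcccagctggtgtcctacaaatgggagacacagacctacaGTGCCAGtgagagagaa
Mag: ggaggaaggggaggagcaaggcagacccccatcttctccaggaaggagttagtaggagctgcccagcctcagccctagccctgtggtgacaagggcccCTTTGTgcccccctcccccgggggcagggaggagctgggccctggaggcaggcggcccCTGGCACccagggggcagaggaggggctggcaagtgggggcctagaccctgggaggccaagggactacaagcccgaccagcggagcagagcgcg
Cnp: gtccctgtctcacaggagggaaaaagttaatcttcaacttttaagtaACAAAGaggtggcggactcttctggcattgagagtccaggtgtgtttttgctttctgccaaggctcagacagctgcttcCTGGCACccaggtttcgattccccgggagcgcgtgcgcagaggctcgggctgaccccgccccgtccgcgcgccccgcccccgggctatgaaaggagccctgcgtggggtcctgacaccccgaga

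Mobp held 8 SOX-type matches, all written CTTTGT in the direction of the gene, at positions -242 to -120, counted from the start site in the gene's direction to the first base of the match. Of 33469 windows of the same length in the table (250 bases before the start and 50 after it), 3 (0.00896%) held 8 or more. That cutoff equals Mobp's own count, and its window is among the 3. The Mobp matches lie in runs of a closely repeated, similar unit, at -242 to -197 and at -142 to -120. They are therefore not separate occurrences of the motif. A SOX-type match was in 5 of the 8 windows of these genes, against 29.1% of all windows, and a MYRF-type match in 5 of the 8, against 6.78% of all windows. The MYRF-type matches lay in the windows of Mag, Opalin, Cldn11, Mal and Cnp. Opalin had SOX-type matches at -215, -188 and -63 and a MYRF-type match at -17. Mag had 1 SOX-type match at -152 and 1 MYRF-type match at -94, and Cnp had 1 of each at -203 and -124. No match of one type overlapped one of the other. Other letters searched were E-box CANNTG (in 7 of the 8 windows, 72.1% of all), GC box GGGCGG (in 5, 33.1% of all), CCAAT (in 2, 37.5% of all) and TATAAA (in 0, 14.2% of all). A match is a string of letters and was not tested as a binding site.

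The probes were ILMN_1359702 for Mbp, ILMN_1357413 for Mobp, ILMN_1352713 for Mog, ILMN_1374620 for Mag, ILMN_1366275 for Mal, ILMN_1364419 for Cnp, ILMN_1650120 for Cldn11, ILMN_1650340 for Opalin and ILMN_1372576 for Ermn. All 9 were detected on all 9 arrays, where detected means above the array's own 25th percentile. Of all 22517 probes, 13002 met this on every array. The values below are log2 intensities after background correction and quantile normalization between arrays, so a difference of 1 is a factor of 2 in intensity. Arrays correlated with each other at 0.9825 to 0.9951, and mean raw intensity ran from 183.6 to 238.8. Of these, 3 arrays were dimmer than the rest (male 4 at 183.6, female 2 at 183.7 and male 2 at 185.4), the other 6 lay at 212.2 or above, and the array of male 5 was the brightest. Among cortical excitatory neuron markers, Neurod6 and Fezf2 were detected on every array by this cutoff, which alone does not show that a gene is expressed. Levels are compared between animals for 1 probe at a time, since 2 probes' brightness cannot be set against each other.

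Male 5 stood apart before any test was made. For 9 of 9 myelin genes its value was the lowest of the 9 animals (8 of 9 with no normalization between arrays, where male 4 was lower for Cnp), while male 5 was lowest for 14.4% of all 18531 probes tested and highest for 13.6%. The gap to the median of the other 8 animals was widest for Mobp (-1.46), Mbp (-1.41) and Cldn11 (-1.33) and narrowest for Mag (-0.37), with a median of -1.16 over the 9 genes. In raw intensity, before any correction, male 5 came to 41.8% to 76.7% of the median of the other 8 animals. A value at least 1 log2 unit below the median of the others was found for 21 of 18531 probes (0.113%), and 6 of the 9 myelin genes were among them. One animal gives no replicate check. The sex differences and the correlations among the 9 genes are given below with and without it. Counts of list genes by their r include male 5.

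**Figure D1:**
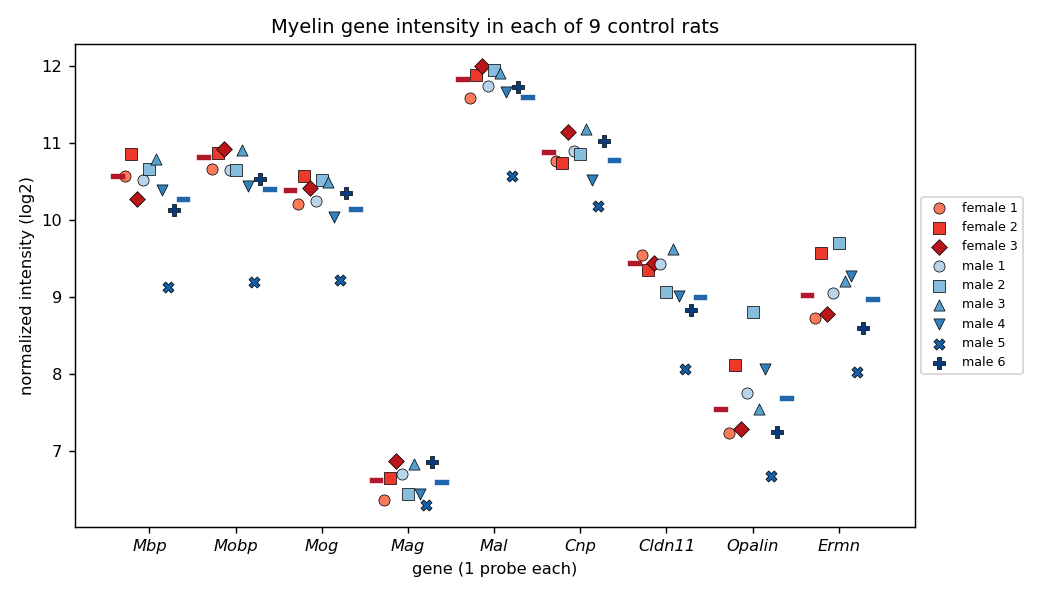
Normalized log2 intensity of each of the 9 myelin genes (x axis, 1 probe each) in each rat (y axis, log2), with females in reds, males in blues and a short bar at the mean of each sex. The cross of male 5 lies at the bottom of every gene, by a wide gap for Mobp, Mal, Mbp and Mog and by a narrow one for Mag.

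Mbp, the basic protein of compact myelin, was 10.57, 10.86 and 10.28 in females 1 to 3. In males 1 to 6 it ran from 9.13 in male 5 to 10.80 in male 3, with a median of 10.46. The females overlapped the males, and the next lowest animal after male 5 was male 6 at 10.13. Mobp, a second basic protein of compact myelin, was 10.67, 10.87 and 10.93 in females 1 to 3. It ran from 9.20 in male 5 to 10.92 in male 3 among the males, with a median of 10.59. Apart from male 5, Mobp spanned only 0.48 log2 units over 8 animals.

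Mog, on the outer surface of the sheath, was 10.21, 10.57 and 10.41 in females 1 to 3 and between 9.22 (male 5) and 10.53 (male 2) in the males, whose median was 10.30. Mal, the sorting proteolipid, was 11.59, 11.89 and 12.01 in females 1 to 3 and between 10.57 (male 5) and 11.96 (male 2) in the males, with a median of 11.74. Both were narrow apart from male 5: the other 8 animals spanned 0.53 for Mog and 0.41 for Mal, and male 5 differed from the next lowest animal by -0.82 and -1.02. Cldn11, of the tight junctions, was 9.55, 9.36 and 9.45 in females 1 to 3. It ran from 8.06 in male 5 to 9.63 in male 3 among the males, with a median of 9.04. For Cldn11 male 5 differed by -0.77 from the next lowest animal, male 6 at 8.83.

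Cnp, the cytoskeleton-binding enzyme, was 10.77, 10.75 and 11.15 in females 1 to 3 and between 10.18 (male 5) and 11.19 (male 3) in the males, with a median of 10.88. The gap was smaller here, at -0.34 from male 4. Mag, the adhesion protein that faces the axon, was 6.37, 6.65 and 6.88 in females 1 to 3 and between 6.31 (male 5) and 6.86 (male 6) in the males, with a median of 6.58. Mag was dim, with raw intensities of 64.2 to 100.3 on arrays whose 25th percentiles were 39.7 to 44.7, so the offset in the background correction compresses its differences. Male 5 differed by only -0.06 from female 1 for Mag, and did not stand apart there.

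Opalin, a late oligodendrocyte membrane protein, was 7.24, 8.13 and 7.29 in females 1 to 3. Among the males it ran from 6.68 in male 5 to 8.82 in male 2, with a median of 7.66. Ermn, the actin-associated protein, was 8.74, 9.58 and 8.78 in females 1 to 3 and between 8.03 (male 5) and 9.70 (male 2) in the males, with a median of 9.14. Opalin and Ermn differed from the other 7 genes in that they varied widely without male 5 as well, over 1.58 and 1.11 log2 units against 0.41 to 0.80.

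The spread between animals can be put beside all probes. The SD over 9 animals was 0.22 for Mag to 0.63 for Opalin, with a median of 0.49, against a median of 0.09 over all tested probes. Without male 5 the SD ran from 0.15 for Mal to 0.55 for Opalin, with a median of 0.22 against 0.09. Without male 5, Opalin had a larger SD than 99.8% of tested probes, Ermn than 99.5%, Cldn11 than 97.6% and Mal than 80.4%. So Opalin and Ermn were among the most variable probes of the table, and Mal was the nearest to the bulk. The probes were not matched by brightness: the median raw intensity of an array was 47.6 to 54.0. The offset in the background correction compresses the differences of such dim probes.

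Next, the sexes were compared with limma over all 18531 tested probes, with Benjamini-Hochberg adjustment. No myelin gene passed at an adjusted p of 0.05 (0 of 9, with 0.0% of all probes past it) and none at an unadjusted p of 0.05 (0 of 9, against 439 probes, 2.37%). The lowest male average relative to females was for Cldn11, at -0.44 ± 0.27 (SE, n = 3 females and 6 males, limma adjusted p = 0.9999), and for Mobp, at -0.42 ± 0.31. The single positive difference was for Opalin, 0.14 ± 0.39, and Mag was nearest to 0 at -0.03 ± 0.14. Males were lower on average for 8 of the 9 genes, against 50.3% of all probes, and the median difference was -0.23. The values of the sexes overlapped for all 9 genes, while 1.5% of probes had sexes that did not.

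Without male 5 the median difference was -0.03 and 5 of the 9 genes were lower in males. Cldn11 was then -0.25 ± 0.16, Mobp -0.18 ± 0.10, Mal -0.03 ± 0.10 and Opalin 0.34 ± 0.33 (SE, n = 3 females and 5 males, limma adjusted p = 0.9994 for each). The signs of Mag, Cnp and Ermn turned, to 0.03, 0.01 and 0.14. A difference that misses the threshold with this many animals does not show that the sexes are alike.

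**Figure D2:**
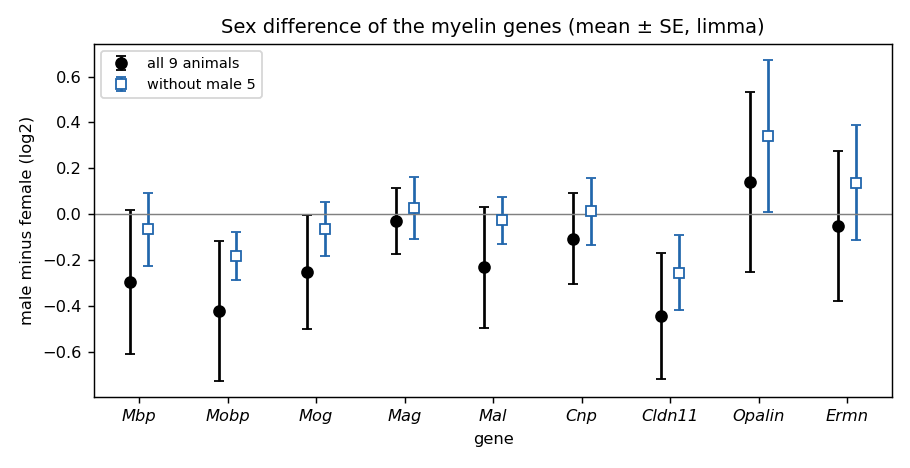
Male minus female difference in log2 intensity for each myelin gene with its standard error from limma, over all 9 animals (filled) and without male 5 (open). Mbp, Mobp, Mog and Mal lie nearer to 0 without male 5, and Opalin lies farther above it.

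The titles also carry a number, of which there are 3, each with 1 female and 2 males, and whose meaning is not given in the labels. With sex in the model, limma's F test across the 3 numbers called 0 of 9 myelin genes at an adjusted p of 0.05 (0.0% of probes). At an unadjusted p of 0.05 it called 2 of 9, against 9.56% of all probes: Mbp (limma adjusted p = 0.45) and Ermn (limma adjusted p = 0.47). Mbp averaged 10.59 ± 0.07, 10.69 ± 0.25 and 9.85 ± 0.62 (SD, n = 3 each) under the lowest, middle and highest number. Ermn averaged 9.17 ± 0.49, 9.35 ± 0.20 and 8.47 ± 0.39 in the same order. Male 5 carries the highest number. Without it Mbp still passed the unadjusted threshold (limma adjusted p = 0.56) and Ermn did not (limma adjusted p = 0.66).

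The covariation of the 9 genes was measured as Pearson's r and Spearman's rho over the 9 animals for all 36 pairs, each with a two-sided exact permutation p over all pairings of animals and Benjamini-Hochberg adjustment over the 36 pairs. These genes were grouped with their covariation on these arrays already known, so the values describe it. The mean r was 0.68 and 35 of 36 pairs were positive. The highest were Mobp with Mal (r = 0.97), Mog with Mal (0.97) and Mobp with Mog (0.96), the compact myelin and surface genes. By Pearson's r, 18 of 36 pairs passed an adjusted exact p of 0.05, and by Spearman's rho 1 of 36 did, with a mean rho of 0.49. The same counts were not made for pairs of other probes, so they do not show covariation particular to these genes.

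Most of this rested on male 5. Without it the mean r was 0.29, 9 of 36 pairs were negative and 1 pair passed. Mobp with Mal had rho = 0.75 (exact permutation p = 0.025, adjusted p = 0.15, n = 9), and r was 0.62 without the 2 animals farthest from the median (female 3 and male 5) and 0.72 without male 5 alone. Mog with Mal held up better, at rho = 0.82 (exact permutation p = 0.011, adjusted p = 0.097), with r = 0.80 without male 4 and male 5 and 0.81 without male 5. Mbp with Mag had r = 0.35 in all animals and -0.29 without male 5 (exact permutation p = 0.47). Set against the mean of the other 8 genes, Mal (r = 0.98), Mog (0.97) and Mobp (0.97) followed the group most closely, and Mag (0.51) and Opalin (0.55) least. Without male 5 these were 0.81, 0.82 and 0.80 for Mal, Mog and Mobp and 0.22 and 0.11 for Mag and Opalin.

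**Figure D3:**
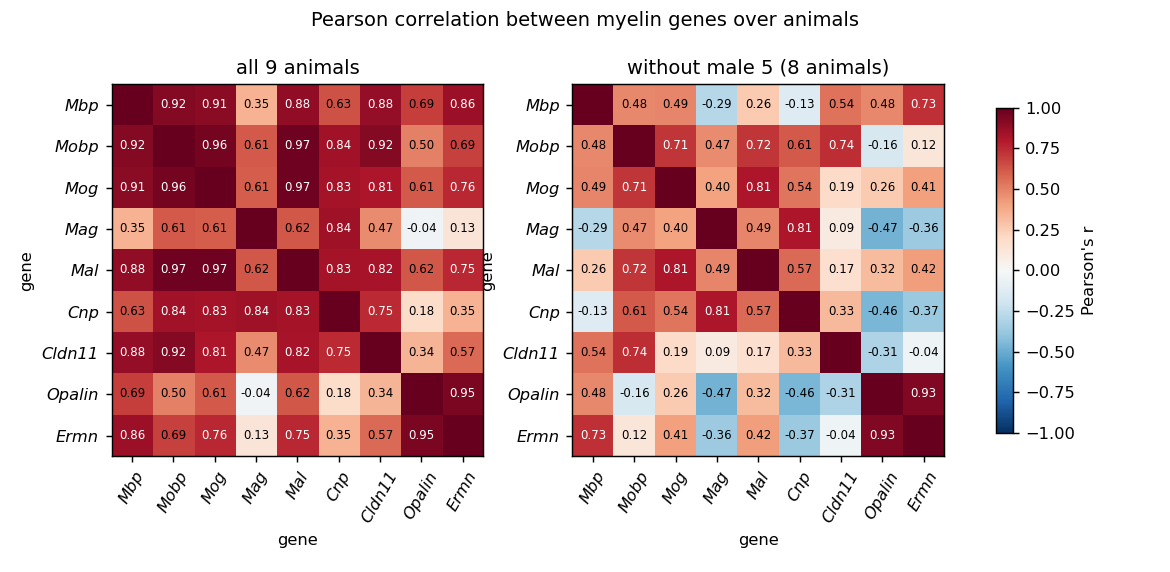
Pearson correlation of each pair of myelin genes over all 9 animals (left) and without male 5 (right), from -1 in blue to 1 in red. With male 5 included 35 of 36 pairs are positive, and without it 27 are, with Opalin and Ermn at 0.93 and Mag and Cnp at 0.81.

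The pair of Opalin and Ermn was the one that passed by r and by rho, with and without male 5. It had r = 0.95 (exact permutation p = 0.00030, adjusted p = 0.011, n = 9) and rho = 0.97 (exact permutation p = 0.00017, adjusted p = 0.0060). It was 0.92 without male 2 and male 5, the 2 farthest animals, and without male 5 alone it was 0.93 (exact permutation p = 0.00052, adjusted p = 0.019, n = 8). Leaving out each animal in turn gave 0.93 to 0.97. Mag with Cnp was a second pair that stayed near its value, with r = 0.84 (exact permutation p = 0.0016, adjusted p = 0.016, n = 9) and rho = 0.87 (adjusted exact permutation p = 0.081). It was 0.85 without female 1 and male 5 and 0.81 without male 5 (exact permutation p = 0.017, adjusted p = 0.22). Opalin had negative correlations with Mag and Cnp once male 5 was left out, at r = -0.47 and -0.46, which did not pass (exact permutation p = 0.24 and 0.26).

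The brightness of the arrays moved with Opalin and Ermn. On the 3 dimmest arrays Opalin lay at 8.07 to 8.82 and on the other 6 at 6.68 to 7.76. Ermn lay at 9.27 to 9.70 on the dimmest 3 and at 8.03 to 9.21 on the others. The separation of Ermn is lost with no normalization between arrays or with scaling to the 75th percentile. That of Opalin remained, but was only 0.033 under the alternative where it was smallest. Opalin and Ermn were 2 of 9 genes with this separation. Of all tested probes, 7.09% had the 3 dimmest arrays all above the other 6. None of the 9 had them all below (0 of 9, against 7.01% of probes). The dim arrays' mean minus the others' was 1.04 for Opalin, 0.78 for Ermn and between -0.16 and 0.40 for the other 7. Male 5 is among the brighter arrays. Without it the difference was 0.92 for Opalin and 0.64 for Ermn. For the other 7 it then ran from -0.30 for Cnp to 0.18 for Mbp, with Cldn11 at -0.23 and Mag at -0.21. The part of brightness in these differences was not tested. Without the 3 dimmest arrays the mean r over the 36 pairs was 0.84 and all were positive, over 6 animals that include male 5.

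**Figure D4:**
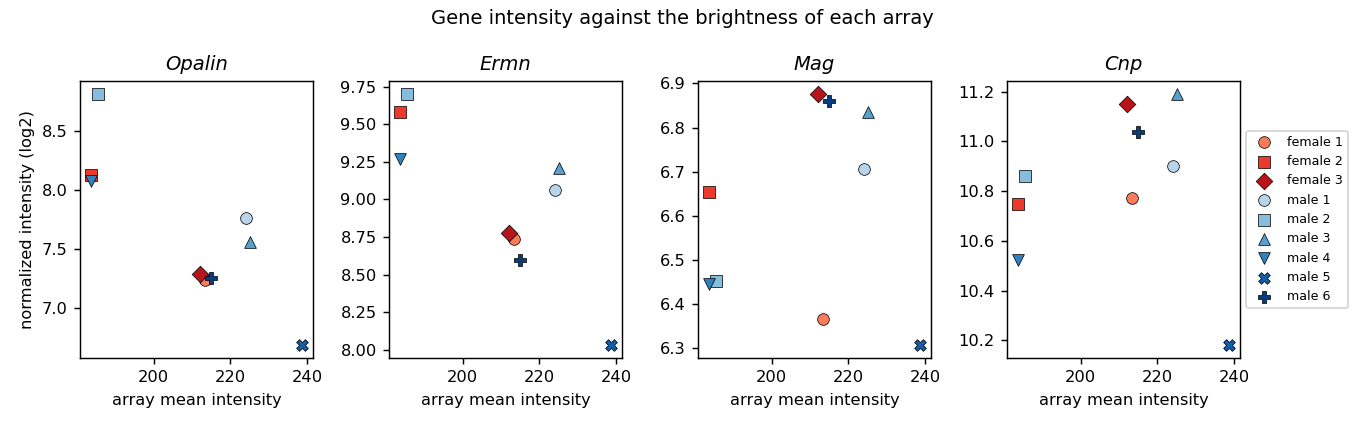
Normalized log2 intensity (y axis) of Opalin, Ermn, Mag and Cnp against the mean raw intensity of each array (x axis), 1 symbol for each rat. Opalin and Ermn are highest on the 3 arrays with a mean intensity of 185.4 or less, and male 5, with the brightest array, is lowest in each panel.

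Other myelin and oligodendrocyte genes were read against the same animals, with likeness measured as Pearson's r to the mean z-score of the 9 genes. Of all tested probes, 6.44% had r above 0.6 and 6.86% below -0.6, and the median r was 0.02. In the list of 19 other measured myelin sheath genes, 12 had r above 0.6 and 0 below -0.6, with a median r of 0.77 (0.57 without male 5). Male 5 was lowest for 13 of the 19, and its median gap to the other animals was -0.50. Tspan2, a tetraspanin of oligodendrocytes, was 9.19 in male 5 and 10.15 in the median of the others. Pllp, the proteolipid plasmolipin of myelin, differed by -0.59, Tmem63a, an ion channel of the membrane, by -0.81 and Tmem98, a membrane protein of the lineage, by -0.50. Hapln2, a matrix protein of the nodes of Ranvier, and Cryab, a small heat shock protein found in oligodendrocytes, were picked after their values were seen, at -1.06 and -1.23. These were the widest gaps of the list. Cryab had r = 0.57, and -0.05 without male 5. Plp2 went the other way, at 0.24 higher in male 5.

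Lipid enzymes of myelin were split. Of 11 measured, 3 had r above 0.6 and 1 below -0.6, with a median r of 0.47 (0.16 without male 5). Ugt8, the galactosyltransferase that makes galactocerebroside, was 8.50 in male 5 against 9.54, and Cers2, the very-long-chain ceramide synthase, was 8.45 against 8.93. Aspa, the oligodendrocyte enzyme that splits N-acetylaspartate, differed by -0.19, and Dhcr7, of cholesterol synthesis, by 0.35 in the other direction. Of 22 other oligodendrocyte genes, 11 had r above 0.6 and 0 below -0.6, with a median r of 0.58 (0.50 without male 5). Tf, transferrin, was 11.85 against 12.65, and Lpar1, a lysophosphatidic acid receptor, 9.31 against 10.15. S1pr5, a sphingosine phosphate receptor of mature oligodendrocytes, differed by -0.84, and Kif5a, a kinesin that neurons also express, by -0.35.

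The lineage factors, the precursor genes and the axon-glia junction genes were less uniform. Of 11 lineage factors, 4 had r above 0.6 and 2 below -0.6. Nkx6-2, a factor of mature oligodendrocytes, was 7.52 in male 5 against 8.44, whereas Hes5, a Notch effector that holds precursors back, was 7.14 against 6.13 (r = -0.94, and -0.43 without male 5). Sox6, a factor of precursors, differed by 0.19, and Sox10 and Olig1, named for their role after their values were seen, by -0.30 each. For Olig1 male 4 was as low as male 5. Olig2 differed by -0.06 and Sox2 by 0.32. Over the 11 factors male 5 was lowest for 2 and highest for 3. Of 13 precursor genes 0 had r above 0.6 and 2 below -0.6: Cspg4, the NG2 proteoglycan, was 0.42 higher in male 5 and Pdgfra, the growth factor receptor of precursors, 0.32 higher. Without male 5 their r was -0.44 and -0.22. Cspg5 was 0.43 higher in male 5, while Vcan went the other way at -0.24. The median r of the precursor list was -0.19, and 0.07 without male 5. The junction genes gave 4 of 12 above 0.6 and 2 below -0.6, with a median r of 0.27 (0.10 without male 5). Jam3, a junctional adhesion molecule, differed by -0.79 in male 5, and Cadm1, an adhesion molecule of axons, by 0.46.

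**Figure D5:**
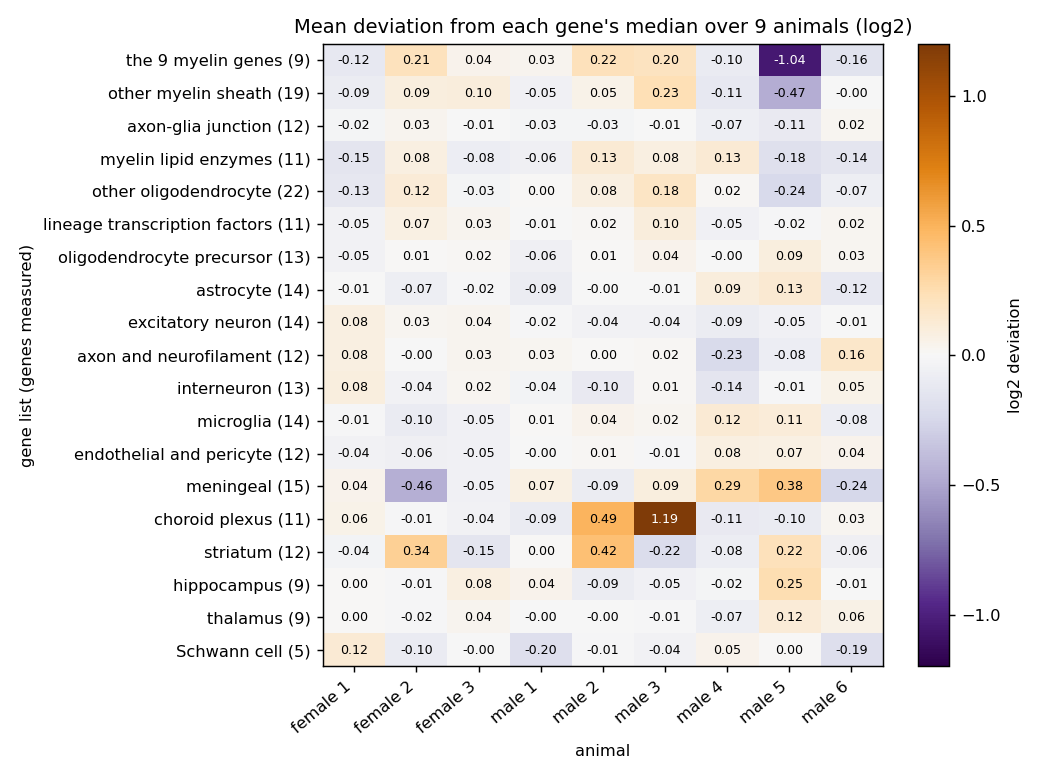
Mean deviation of each gene list from its genes' medians over the 9 animals (log2), 1 column for each rat and 1 row for each list with its number of measured genes. In male 5 the 9 myelin genes average -1.04, the other sheath genes -0.47 and the meningeal genes 0.38.

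Markers of other cell types and regions were read in the same way. The 15 meningeal genes were on average 0.38 above their medians in male 5, against -0.46 to 0.29 in the other 8 animals. Of these, 7 of 15 had r below -0.6 and 0 above 0.6, and male 5 was highest for 6. The median r of the list was -0.56, and -0.29 without male 5. Slc6a13, a GABA transporter of the meninges, was 0.38 higher in male 5 (r = -0.89, and -0.78 without it), Slc22a6, an organic anion transporter, 0.44 higher, and Aldh1a2, the retinoic acid enzyme of the meninges, 0.38 higher. The hippocampal list averaged 0.25 above in male 5, against -0.09 to 0.08 in the others, which came from 3 of its 9 genes: Wfs1 (0.94), Ccn3 (0.87) and Cpne4 (0.68). Its median gap was 0.0059. The part of meningeal and hippocampal RNA in the low myelin values of male 5 was not tested.

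The neuronal lists had few genes that followed the myelin genes. Of 14 excitatory neuron genes 2 had r above 0.6 and 1 below -0.6, and Lamp5, found in superficial cortical neurons, differed by -1.23 in male 5. Of 13 interneuron genes 1 was above and 3 below: Pvalb, the parvalbumin of fast-spiking cells, differed by -1.03, while Calb2, calretinin, was 0.67 higher, Reln, reelin, 0.46 higher and Htr3a, a serotonin receptor, 0.74 higher. Axon and neurofilament genes gave 2 of 12 above and 2 below, with Nefm, the medium neurofilament, at 7.53 in male 5 against 8.47. In the astrocyte list 0 of 14 were above and 1 below, in the microglia list 0 of 14 and 1, and in the vessel list 0 of 12 and 0. Striatal genes gave 0 of 12 above and 0 below, thalamic genes 0 of 9 above and 2 below, and Schwann cell genes 0 of 5 and 0. Choroid plexus genes gave 1 of 11 above and 0 below, with a median r of 0.29. Without male 5 that median was 0.57, the same as for the other myelin sheath genes. The choroid plexus list averaged 1.19 above its medians in male 3 and 0.49 in male 2.

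Among 9065 named probes detected on all arrays, the 10 most like the mean of the 9 genes by Pearson's r over 9 animals were Scn4b, Ttc9, Scrt1, Ugt8, Adora1, Tmem98, Nefm, Tsnax, Lyzl4 and Mblac1, with r from 0.93 to 0.96. Scn4b, a sodium channel beta subunit, led at 0.96 and held 0.89 without male 5, and it was 7.11 in male 5 against 8.09 to 9.01 in the others. Nefm had r = 0.54 without male 5, and Mblac1 0.84. The 5 most opposite were Plppr2, Gpc4, Hrk, Slc16a11 and Nnat, with r from -0.98 to -0.97. Nnat, neuronatin, was 9.36 in male 5 and 7.12 to 7.55 elsewhere, and Hrk, a pro-apoptotic protein of neurons, was 8.40 against 6.58 to 7.10. Gpc4, a glypican, kept r = -0.88 without male 5. Of the 15 probes that are not myelin members and lay at least 1 log2 unit lower in male 5, Lyzl4 was lowest at -1.91, and Scn4b, Lamp5, Hapln2, Ugt8 and Pvalb were also among them.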

How the data were processed

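Each sample's own table held the linear bead intensity of each probe that the authors deposited. Judged by their distributions, these had no normalization between arrays and no subtraction of background down to 0. The scanner software is not given in the sources used here. A series-wide log2 table of 15912 probes, also deposited by the authors, correlated with the normalized single tables at 0.999963 or above on every array and was used as an alternative only. Intensities were corrected with normexp (offset 50), taken to log2 and quantile-normalized in limma 3.58.1 under R 4.3.3. The 18531 probes above their array's 25th percentile on at least 3 arrays were tested with lmFit and eBayes, and the p-values were adjusted by Benjamini-Hochberg across these probes. The number of animals limits the precision, and the labels do not say whether animals share a litter or a day. Gene symbols came from the platform annotation; 10662 were updated through gene identifiers of the RefSeq table for GRCr8. Correlations between genes used exact permutation over all pairings of animals. The genes, lists, tests and the choice of the 3 dimmest arrays were made with earlier results of these data known. Named genes outside the 9 were the 10 probes most like their mean z-score, the 5 most opposite, and up to 4 genes with the strongest correlation in each list. Hapln2, Cryab, Plp2, Sox10, Olig1, Olig2, Sox2, Neurod6 and Fezf2 were named outside this rule. The programs were tested on simulated data.

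The 18 other lists held markers of sheath, axon-glia junction, lipid enzymes, oligodendrocytes, lineage factors, precursors, astrocytes, excitatory neurons, axons, interneurons, microglia, vessels, meninges, choroid plexus, striatum, hippocampus, thalamus and Schwann cells. Alternatives covered background, normalization, probe filter, source table, array weights, covariates and the animals included.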

Additional observations from a re-analysis of the deposited data

Results flagged for a closer look

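Among the 6 males, male 5 lay far below the other 5 for Mobp (9.20), Mog (9.22) and Mal (10.57) on the log2 scale. Its gap to the nearest male, divided by the range of the 6, was 0.73, 0.63 and 0.79, above Dixon's 95% critical value of 0.625. The other 6 myelin genes did not pass this test, Mbp coming closest at 0.60. Chance puts about 1 in 20 such groups past the critical value, and the 9 genes are correlated, so the 3 are not separate pieces of evidence. The share of all probes that pass this test was not computed. Male 5 had already been singled out from these same values, so the test describes its gap and adds no independent support. The array of male 5 was also the brightest, and its meningeal genes averaged 0.38 above their medians; the part of either in these values was not tested.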

How the results depend on the processing

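No paired analysis was possible because nothing in the labels matches one female with one male. The title number, shared by 1 female and 2 males each, was run as a block instead: 0 of 9 myelin genes passed for sex, adjusted or not, and the median difference stayed at -0.23. The choice of the dimmest probe per gene was not run, since each gene has 1 probe. No myelin gene passed an adjusted p of 0.05 for sex or title number under any alternative run. The count of myelin genes at an unadjusted p of 0.05 across title numbers, 2 in the main analysis, was 0 with intensities floored at 64, 1 with no normalization between arrays and 0 without the 3 dimmest arrays. It was 3 with a normexp offset of 16, scaling to the 75th percentile, the series-wide table or array weights. The count over all probes at an adjusted p was 0 and became 3 without the 3 dimmest arrays. The sign of the male minus female difference turned for Mag to 0.0040 with no normalization and to 0.056 without the 3 dimmest arrays. It turned for Ermn to 0.0078 with no normalization and to 0.092 with array weights. The mean correlation of the 36 pairs, 0.68, was 0.84 without the 3 dimmest arrays and 0.49 as Spearman's rho, which left 1 pair past the threshold. The median gap of male 5, -1.16, was -0.93 with no normalization, where it was lowest for 8 of 9 genes. The separation of the dimmest arrays for Ermn was -0.29 with no normalization and -0.076 with scaling to the 75th percentile. For Opalin it stayed above 0, at 0.033 where it was smallest. Leaving out each animal in turn gave 0 to 1 myelin genes at an unadjusted p for sex, 1 to 3 for title number, and 0 to 1 probes at an adjusted p for title number over all probes. The median sex difference then ran from -0.30 to -0.03, the mean correlation from 0.29 (without male 5) to 0.73, and the pairs past the threshold from 1 to 17. The pairs past it numbered 1 when male 5 was left out, 7 each for male 3 and male 4, and 11 for female 2. The sex difference ran from -0.16 to 0.091 for Mag, -0.19 to 0.022 for Cnp, -0.085 to 0.43 for Opalin and -0.20 to 0.22 for Ermn. Of the recomputed summary values, 187 stayed within a margin set for each kind of value (1.5 times for a count), and 17 moved. Of the recomputed values of single genes and pairs, 580 stayed, 105 no longer passed the threshold, 15 changed sign and 4 moved.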
